A study of Homo sapiens with 8 samples.

Results

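The genes described here are the cyclins of the G1 phase, the cyclin-dependent kinases that they activate, and the pocket proteins RB1 and RBL1. They were taken by symbol from the gene counts: the D cyclins CCND1, CCND2 and CCND3, the E cyclins CCNE1 and CCNE2, the kinases CDK4, CDK6 and CDK2, and RB1 with RBL1. All 10 were found among the 58302 gene IDs counted, and all 10 were among the 18240 genes that passed the filter on low counts.

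The RNA came from Caco-2/15 cells, a human colon cancer line whose cultures take on features of absorptive enterocytes after they reach confluence. Postconfluent cells (Pc) were collected 7 days after confluence and subconfluent cells (Sc) before it. Z1flag cells are heterozygous H2AFZ-Flag and Z2flag cells heterozygous H2AFV-Flag: CRISPR-Cas9 placed a Flag tag on 1 allele of an H2A.Z gene in each, H2A.Z being a variant of histone H2A. The series asks what each H2A.Z isoform adds to the expression changes of enterocyte-type differentiation. The 4 groups are thus postconfluent Z1flag, subconfluent Z1flag, postconfluent Z2flag and subconfluent Z2flag cells, with 2 strand-specific, rRNA-depleted RNA-seq libraries each. All groups carry a tagged allele, and untagged Caco-2/15 cells were not analysed here. The sources used here do not state whether each tagged population is 1 clone. The labels speak of duplicates without saying that they are separate cultures, so the p-values measure only the spread between these samples, which may be technical.

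In G1, D cyclins bind CDK4 or CDK6 and these pairs begin to phosphorylate the pocket proteins. E cyclins with CDK2 phosphorylate them further, and the E2F factors that the pocket proteins held back then switch on genes of DNA replication. In the intestine this route is active in the dividing cells of the crypt and is shut down as cells leave it to become enterocytes, through lower cyclins and kinases, inhibitors of these kinases, and repressor complexes built on the pocket proteins. All results below are transcript levels. Cyclin protein, kinase activity and RB phosphorylation were not measured.

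Libraries held 17063826 to 40881682 counts assigned to genes. Postconfluent Z1flag replicate 1 stood apart in several measures. Its share of reads on no gene was 31.4%, with 32.02% in subconfluent Z1flag replicate 1 and 20.6% to 24.5% in the other 6 libraries, and the postconfluent Z1flag pair differed most, with a median absolute log2 difference of 0.46 against 0.15 to 0.32 for the other pairs. Of the 4 postconfluent libraries it held the lowest level of 24 of 25 genes that E2F factors activate at G1/S. Of all genes tested, 35.3% were lowest and 36.4% highest there. It was also the lowest postconfluent library for 5 of the 10 G1 genes and the highest for 2, CDK6 and RB1. For CCND3, CDK2 and RB1, whose calls in Z1flag cells or averaged differed without this library, confluence changes are given with and without it. The Z1flag call of CCND1 was also lost without it.

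The labelled cell type was checked against 14 enterocyte and epithelial markers. EPCAM, CDH1, VIL1, CDH17 and DPP4 had at least 250.4 CPM in every library (CPM, gene counts relative to library size with TMM scaling, the unit of all levels here unless a length is named). Of the 13 markers tested, 9 were higher and 2 lower in Pc than in Sc cells over both lines, against 27.8% of all genes higher and 27.5% lower. APOA4, an apolipoprotein of lipid-absorbing cells, had 209.5 to 368 CPM in Pc and 3.24 to 8.41 CPM in Sc cells, and the brush border enzymes ANPEP and ALPI were also higher. The keratins KRT18 and KRT8 were lower (KRT8 is named after its value was seen). The summed level of all 14 markers was 5879 to 9394 CPM in Pc and 11980 to 14245 CPM in Sc cells. KRT8 alone ranged from 1138 to 7122 CPM over the libraries. FABP2, a fatty acid binding protein of enterocytes, had 5 counts in all 8 libraries together, and SI, the brush border sucrase, reached at most 6.202 CPM. Markers of other cells were measured beside these. The summed level of 7 fibroblast markers was 72.2 to 86.9 CPM in Pc and 183 to 233 CPM in Sc cells, with 1 of 5 tested markers higher (COL1A1) and 3 lower (PDGFRA and COL3A1 among them), COL1A2 at 0 counts in every library and DCN at 0.285 CPM or less. The sum of 9 leukocyte and endothelial markers was 37.3 to 41.3 CPM in Pc and 14.3 to 32.6 CPM in Sc cells, with 3 of 6 tested markers higher, ITGAM and PECAM1 among them. The PECAM1 call was lost without subconfluent Z1flag replicate 1, postconfluent Z2flag replicate 2 or both Z1flag replicate 1 libraries. Of their defining genes, PTPRC had 3 and CDH5 had 9 counts in the 8 libraries together. The part of these markers in the results on G1 genes was not tested.

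The main comparison asks how the G1 genes differ between Pc and Sc cells in each tagged line. In both lines the D cyclins CCND1 and CCND2, both E cyclins, CDK4, CDK6 and RBL1 were lower in Pc cells, and no G1 gene was higher. That makes 7 of 10 lower in Z1flag cells, where 19.1% of all genes tested were lower and 21.3% higher, and 7 of 10 in Z2flag cells, where 19.3% were lower and 18.3% higher (edgeR quasi-likelihood test, adjusted p under 0.05). With both lines averaged, which uses all 8 libraries, CDK2 was also called and 8 of 10 were lower, against 27.5% of all genes lower and 27.8% higher. CCND3 and RB1 were not called in any of these tests. The median log2 fold change of the 10 genes was -1.24 in Z1flag, -1.0 in Z2flag and -1.17 averaged, beside medians of 0.04, -0.05 and -0.01 over all genes tested. In bulk RNA, fewer cells in the division cycle and less of each transcript per cell cannot be told apart.

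**Figure D1:**
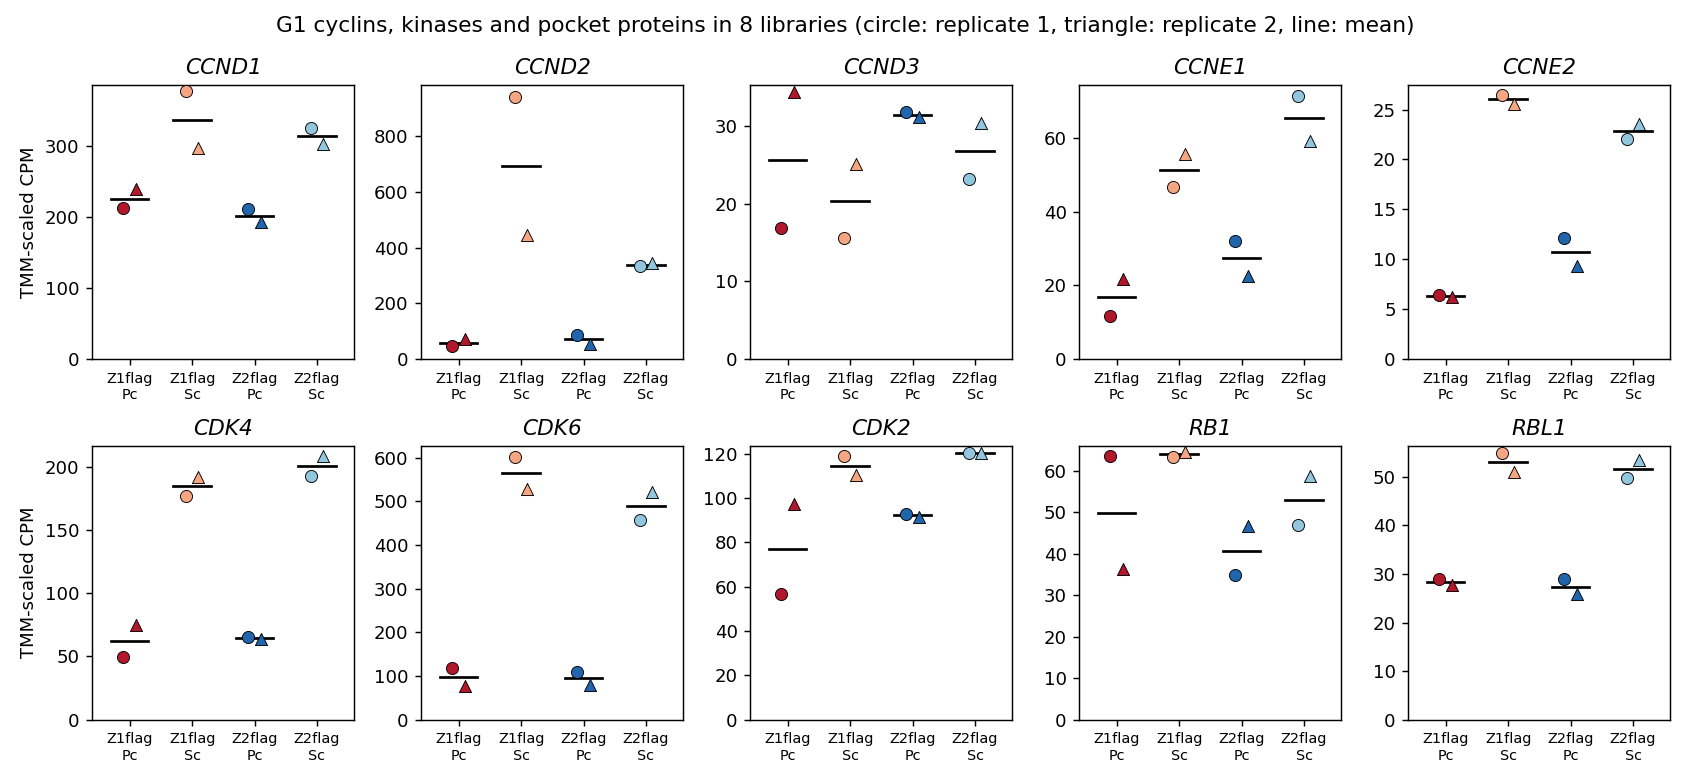
TMM-scaled CPM (vertical axis, linear, starting at 0) of each of the 10 genes in the 8 libraries, by line and state, with circles for replicate 1, triangles for replicate 2 and lines for the mean of 2 libraries. CCND2 lies between 46.6 and 87.9 CPM in Pc libraries and between 333 and 940.4 CPM in Sc libraries, while the Pc and Sc libraries of CCND3 and RB1 overlap.

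CCND1 encodes cyclin D1, the D cyclin that growth factor and WNT signals raise in many epithelia, and lies on the plus strand of chromosome 11 at 69641087 to 69654474 (GRCh38, Ensembl gene ENSG00000110092). Its level was 212.5 and 239 CPM in postconfluent Z1flag replicates 1 and 2, and 377 and 296 CPM in subconfluent ones. Z2flag cells had 211 and 192 CPM after confluence and 325 and 302 CPM before it. All 4 Pc libraries lay below all 4 Sc libraries, but the gap was small. Exons of CCND1 share 497 bases with LTO1 on the other strand, whose counts were 8.87% of those of CCND1. In Z1flag cells the log2 fold change of CCND1 was -0.58 (SE 0.20, edgeR adjusted p = 0.0397). In Z2flag cells it was -0.64 (SE 0.20, adjusted p = 0.0285), and averaged over lines -0.61 (SE 0.14, adjusted p = 0.00425). Over all genes tested, 25.5% had a lower averaged fold change than CCND1. Of 17 alternatives tried in each line, the Z1flag call of CCND1 was lost in 12 and the Z2flag call in 5. The Z1flag call was lost in 7 of 8 fits that leave out a library, with edgeR adjusted p of 0.0581 to 0.26, and held only without postconfluent Z1flag replicate 2. The Z2flag call was lost without any of the 4 Z2flag libraries, with adjusted p of 0.121 to 0.204. The averaged call held in all 16 alternatives tried, at adjusted p up to 0.0307.

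CCND2 encodes cyclin D2, which pairs with the same kinases, and lies on the plus strand of chromosome 12 at 4273772 to 4305350 (ENSG00000118971). Its levels were 46.6 and 71.0 CPM in postconfluent and 940.4 and 444 CPM in subconfluent Z1flag cells. In Z2flag cells they were 87.9 and 52.6 CPM after confluence and 333 and 346 CPM before it. The states were far apart in both lines, and subconfluent Z1flag replicate 1 was the highest library by a wide margin. The log2 fold change of CCND2 was -3.56 in Z1flag cells (SE 0.40, edgeR adjusted p = 0.000275), with -2.27 for Z2flag cells (SE 0.38, adjusted p = 0.00172). Averaged, it fell by 2.92 (SE 0.28, adjusted p = 2.81e-05), and 0.713% of all genes tested had a lower fold change. Mean Pc level was 8.49% of the Sc level in Z1flag and 20.7% in Z2flag cells. Without subconfluent Z1flag replicate 1 the Z1flag change of CCND2 was -2.94, still called.

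CCND3 encodes cyclin D3, on the minus strand of chromosome 6 at 41934933 to 42050357 (ENSG00000112576). It had 16.8 and 34.4 CPM in postconfluent and 15.6 and 25.1 CPM in subconfluent Z1flag cells. In Z2flag cells it had 31.9 and 31.2 CPM after confluence and 23.2 and 30.4 CPM before it. Replicate 1 was the lower library in both Z1flag groups, the Z1flag states overlapped, and the Z2flag Pc libraries lay just above the Sc libraries. The averaged log2 fold change of CCND3 was 0.28 (95% interval -0.25 to 0.81, edgeR adjusted p = 0.342). The value depended on single libraries. Without postconfluent Z1flag replicate 1 it was 0.56 (adjusted p = 0.0222) averaged and 0.79 (adjusted p = 0.0441) in Z1flag cells, and without postconfluent Z1flag replicate 2 the Z1flag value turned to -0.28 (adjusted p = 0.449).

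The make-up of the D cyclin transcripts differed between states. Per kb of merged exons, CCND1 made up 71.1% to 82.4% of the summed D cyclin level in the 4 Pc libraries and 36.8% to 57.1% in the 4 Sc libraries. CCND2 made up 12.2% to 19.98% in Pc and 39.5% to 62.0% in Sc libraries. CCND3 was the smallest part, with 5.43% to 10.2% in Pc and 1.27% to 4.51% in Sc libraries. The sum itself was 52.6 to 65.4 CPM per kb in Pc and 116 to 212 CPM per kb in Sc libraries. These shares are scores over chosen genes and were not tested.

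**Figure D2:**
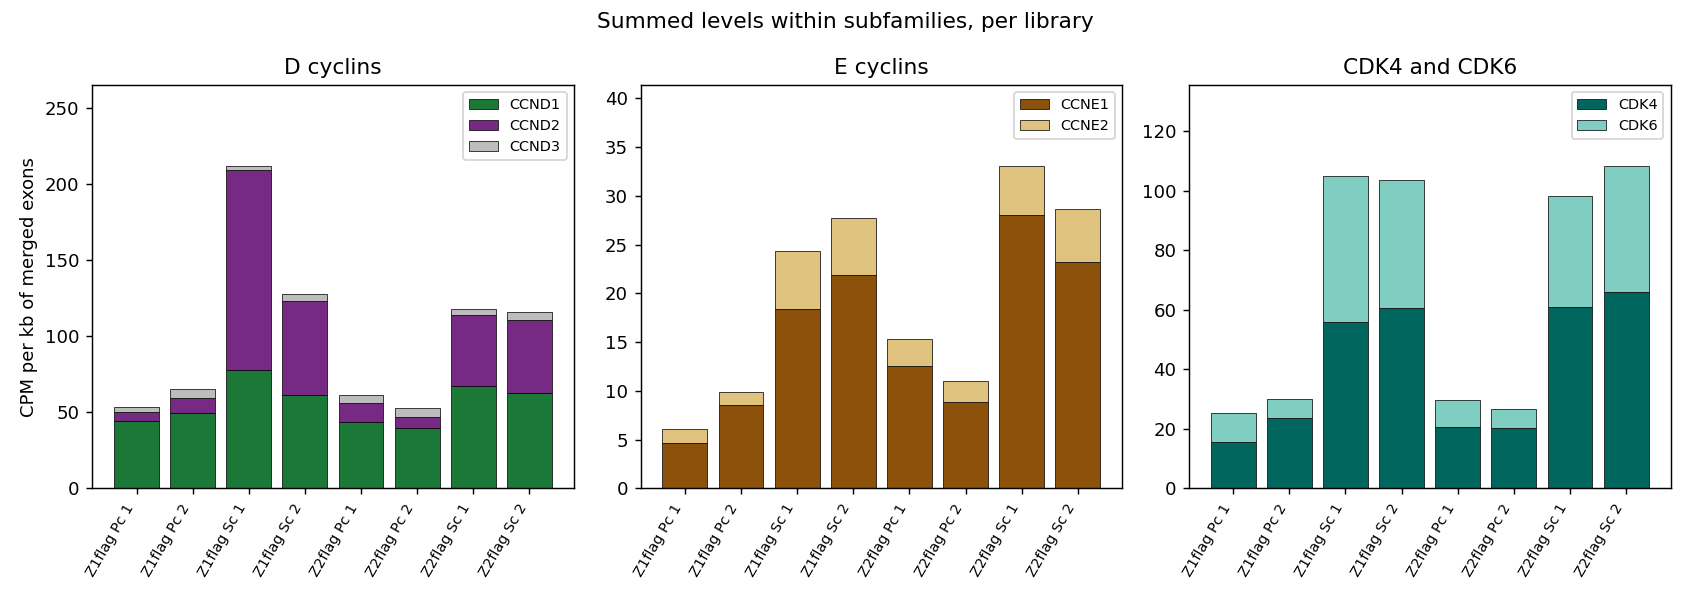
Summed levels of the D cyclins, the E cyclins, and CDK4 with CDK6 in CPM per kb of merged exons (vertical axes, linear, from 0), 1 bar per library, with segments for the genes named in each legend. Every Pc bar is shorter than every Sc bar in each of the 3 panels, and in the D cyclin panel the CCND2 segment takes 12.2% to 19.98% of the Pc bars and 39.5% to 62.0% of the Sc bars.

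CCNE1 encodes cyclin E1, the partner of CDK2 at entry into S phase and itself an E2F target, and lies on the plus strand of chromosome 19 at 29811898 to 29824308 (ENSG00000105173). Its levels were 11.8 and 21.7 CPM in postconfluent and 46.8 and 55.8 CPM in subconfluent Z1flag cells. Z2flag cells had 32.1 and 22.6 CPM after confluence and 71.6 and 59.3 CPM before it. The states did not overlap, and Z2flag libraries lay above Z1flag libraries within each state. The log2 fold change of CCNE1 in Z1flag cells was -1.62 (SE 0.30, edgeR adjusted p = 0.00254), and that in Z2flag cells -1.26 (SE 0.30, adjusted p = 0.00874). The Z2flag call was lost without postconfluent replicate 2 (-0.94, adjusted p = 0.101) and without subconfluent replicate 1 (-1.13, adjusted p = 0.057). The averaged change was -1.44 (SE 0.21, adjusted p = 0.000312) and was called in all 16 alternatives.

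CCNE2 encodes cyclin E2, on the minus strand of chromosome 8 at 94879770 to 94896678 (ENSG00000175305). It had 6.39 and 6.17 CPM in postconfluent and 26.4 and 25.6 CPM in subconfluent Z1flag cells. In Z2flag cells it had 12.1 and 9.32 CPM after confluence and 22.1 and 23.6 CPM before it. Replicates of CCNE2 lay close together, and the Pc libraries of Z1flag cells were the lowest of all. For CCNE2 the log2 fold change was -2.05 in Z1flag cells (SE 0.23, edgeR adjusted p = 0.000266), with -1.09 for Z2flag cells (SE 0.22, adjusted p = 0.00422). Both calls held in all 17 alternatives. Its exons share 1629 bases with INTS8 on the other strand, whose counts over all libraries together were 291% of those of CCNE2. In Pc libraries INTS8 had 1677, 788, 760 and 763 counts, beside 169, 121, 220 and 155 for CCNE2 (Z1flag replicates first). In Sc libraries it had 1203, 1385, 2174 and 1983 counts, beside 587, 670, 929 and 837 for CCNE2, so the ratio differed between states. The part of INTS8 reads in the CCNE2 change was not tested. The sources used here do not state whether counting used strand, so reads of the 2 genes in the shared stretch cannot be told apart with certainty.

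Per kb, CCNE1 was the larger part of the E cyclin sum in every library, with 76.0% to 85.9% in Pc and 75.3% to 84.8% in Sc libraries. The sum was 6.07 to 15.3 CPM per kb in Pc and 24.4 to 33.1 CPM per kb in Sc libraries. Unlike the D cyclins, the E cyclins showed overlapping shares in the 2 states.

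CDK4 and CDK6 are the kinases that D cyclins activate. Their promoters are shown because both genes fell in both lines: each line holds 250 bases before and 50 bases after the start site of RefSeq (GRCh38.p14), read 5′ to 3′ on the minus strand of the gene, chr12:57752261-57752560 for CDK4 and chr7:92836524-92836823 for CDK6. Capitals mark CACGTG, the E-box that MYC and related factors bind.
CDK4: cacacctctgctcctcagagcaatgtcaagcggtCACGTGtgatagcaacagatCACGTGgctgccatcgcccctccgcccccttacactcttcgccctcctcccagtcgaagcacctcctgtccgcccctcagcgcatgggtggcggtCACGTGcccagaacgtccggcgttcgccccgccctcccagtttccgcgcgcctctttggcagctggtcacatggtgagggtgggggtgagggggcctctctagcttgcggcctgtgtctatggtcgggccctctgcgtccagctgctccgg
CDK6: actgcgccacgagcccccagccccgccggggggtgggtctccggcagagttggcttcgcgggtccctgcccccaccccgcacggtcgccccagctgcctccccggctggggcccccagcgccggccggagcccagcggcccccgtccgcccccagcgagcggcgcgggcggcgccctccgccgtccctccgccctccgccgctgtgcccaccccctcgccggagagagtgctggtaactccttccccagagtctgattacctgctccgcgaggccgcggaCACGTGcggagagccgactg
The CDK4 window holds 3 E-boxes, starting at positions -216, -196 and -101 from the start site, and the CDK6 window holds 1, starting at position 30. Of 35116 promoter windows of the same length, 7.26% hold at least 1 CACGTG and 0.094% at least 3. The second RefSeq window of CDK6 holds none. The windows of CCNE1 and RBL1, which also fell in both lines, hold none either. Nor do the windows of CCND3 or the internal window of RB1. These matches describe the sequence and do not show that a factor binds there.

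CDK4 lies on the minus strand of chromosome 12 at 57747727 to 57756013 (ENSG00000135446). It had 49.9 and 74.8 CPM in postconfluent and 177 and 192 CPM in subconfluent Z1flag cells. Z2flag cells held 65.4 and 63.8 CPM after confluence and 193 and 209 CPM before it. All 4 Pc libraries lay well below all 4 Sc libraries. For CDK4 the log2 fold change was -1.56 in Z1flag cells (SE 0.22, edgeR adjusted p = 0.000688), a Pc mean of 33.8% of the Sc mean. It was -1.64 in Z2flag cells (SE 0.22, adjusted p = 0.000661), a Pc mean of 32.2%. The call held in all 17 alternatives in each line. Exons of CDK4 share 1369 bases with TSPAN31 on the other strand, whose counts over all libraries together were 18.5% of those of CDK4. In Pc libraries TSPAN31 had 1215, 732, 567 and 607 counts, beside 1320, 1466, 1187 and 1061 for CDK4 (Z1flag replicates first). In Sc libraries it had 330, 463, 824 and 730 counts, beside 3929, 5019, 8117 and 7413 for CDK4. The ratio thus differed between states, and whether counting used strand is not stated. The part of TSPAN31 reads in the CDK4 change was not tested.

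CDK6 lies on the minus strand of chromosome 7 at 92604921 to 92836594 (ENSG00000105810). Its levels were 118 and 77.6 CPM in postconfluent and 601 and 528 CPM in subconfluent Z1flag cells. Z2flag cells had 109.6 and 80.5 CPM after confluence and 457 and 522 CPM before it. No Pc library came near an Sc library. For CDK6 the log2 fold change was -2.53 in Z1flag cells (SE 0.26, edgeR adjusted p = 0.000216), a Pc mean of 17.3% of the Sc mean, and -2.37 in Z2flag cells (SE 0.26, adjusted p = 0.000287), a Pc mean of 19.4%. Averaged it fell by 2.45 (SE 0.18, adjusted p = 1.07e-05), and 1.33% of all genes had a lower fold change. Both lines kept the call in all 17 alternatives.

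Per kb, CDK4 made up 62.1% to 78.9% of the CDK4 and CDK6 sum in Pc libraries and 53.3% to 62.0% in Sc libraries. The lowest Pc share and the highest Sc share were nearly equal. The sum was 25.4 to 29.9 CPM per kb in Pc and 98.2 to 108 CPM per kb in Sc libraries.

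CDK2, the kinase of the E cyclins, lies on the plus strand of chromosome 12 at 55966769 to 55972784 (ENSG00000123374). It had 56.6 and 97.5 CPM in postconfluent and 119 and 110.2 CPM in subconfluent Z1flag cells. Z2flag cells had 93.0 and 91.3 CPM after confluence and 120.4 and 120.2 CPM before it. The Pc libraries lay below the Sc libraries, but 3 of the 4 were between 91.3 and 97.5 CPM and only postconfluent Z1flag replicate 1 was far lower. The change in CDK2 was not called in either line, at -0.57 in Z1flag cells (SE 0.24, edgeR adjusted p = 0.0833) and -0.38 in Z2flag cells (SE 0.24, adjusted p = 0.232). The Z1flag value was -0.20 (adjusted p = 0.353) without postconfluent replicate 1. It passed without postconfluent replicate 2 (-1.03, adjusted p = 0.00128) and without the filter (-0.64, adjusted p = 0.0279). Averaged, CDK2 fell by 0.48 (SE 0.17, adjusted p = 0.0356). That call was lost in 11 of 16 alternatives, with adjusted p up to 0.149, among them 7 of the 8 that leave out 1 library. Without postconfluent Z1flag replicate 1 the averaged value was -0.25 (adjusted p = 0.0695), and without postconfluent Z1flag replicate 2 it was -0.66 (adjusted p = 0.000584). CDK2 lies wholly within the body of PMEL on the other strand, with 89 bases of shared exons. Over all libraries together PMEL counts were 8.91% of those of CDK2. In Pc libraries PMEL had 399, 308, 195 and 259 counts, beside 1497, 1911, 1687 and 1518 for CDK2 (Z1flag replicates first). In Sc libraries it had 132, 164, 259 and 197 counts, beside 2643, 2886, 5066 and 4272 for CDK2.

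**Figure D3:**
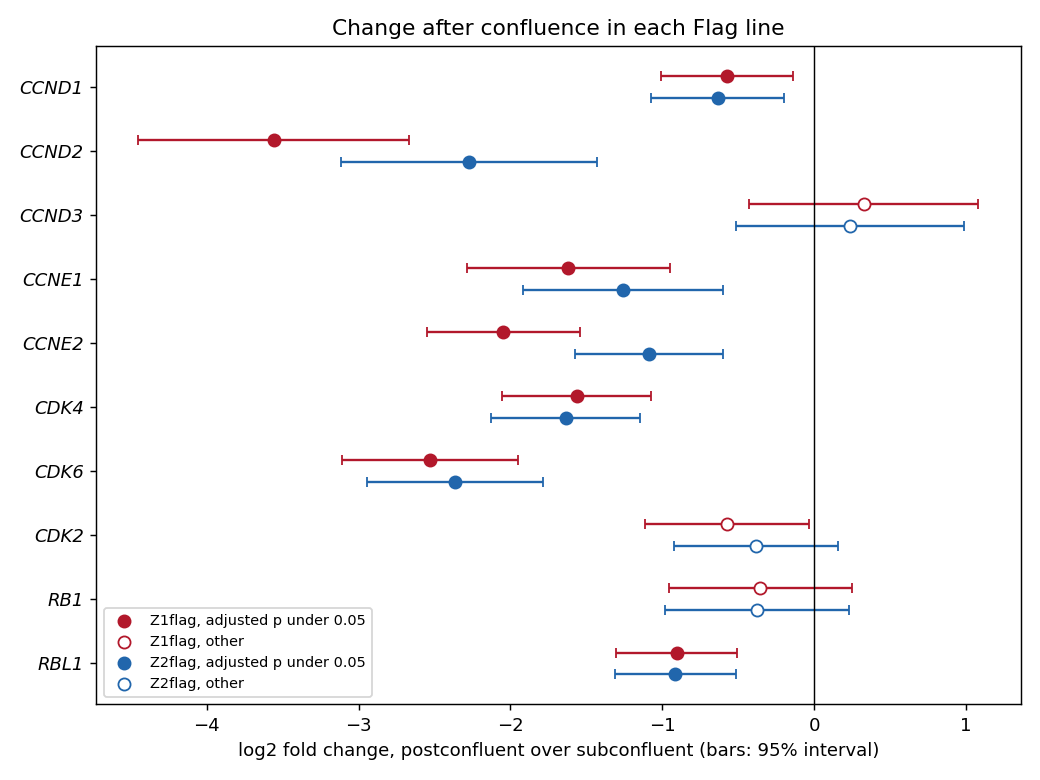
Log2 fold change of Pc over Sc cells (horizontal axis) for each gene, with Z1flag in red above Z2flag in blue, bars for the 95% interval, and filled points for edgeR adjusted p under 0.05. CCND2 at -3.56 and CDK6 at -2.53 in Z1flag cells lie farthest to the left, and the open points of CCND3, CDK2 and RB1 lie between -0.57 and 0.33.

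RB1 encodes the retinoblastoma protein, the main target of the D cyclin kinases, and lies on the plus strand of chromosome 13 at 48303726 to 48599436 (ENSG00000139687). Its levels were 63.6 and 36.3 CPM in postconfluent and 63.4 and 64.6 CPM in subconfluent Z1flag cells. In Z2flag cells they were 34.9 and 46.6 CPM after confluence and 47.0 and 58.8 CPM before it. Postconfluent Z1flag replicate 1 was as high as the Sc libraries of that line, while the other 3 Pc libraries were the lowest 3 of the 8. RB1 changed by -0.37 averaged (95% interval -0.79 to 0.06, edgeR adjusted p = 0.129) and did not pass in either line. Its value was -0.15 averaged (adjusted p = 0.366) and -0.02 in Z1flag cells (adjusted p = 0.958) without postconfluent Z1flag replicate 2. Without postconfluent Z1flag replicate 1 the change of RB1 passed, at -0.53 averaged (adjusted p = 0.0106) and -0.78 in Z1flag cells (adjusted p = 0.0231). It also passed without the filter (-0.43, adjusted p = 0.0366) and without both Z1flag replicate 1 libraries (-0.56, adjusted p = 0.0273).

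RBL1 encodes p107, a pocket protein that binds the repressive E2F factors and is itself transcribed under E2F control in cycling cells. It is on the minus strand of chromosome 20 at 36996349 to 37095995 (ENSG00000080839). Its promoter is shown because the window holds words that E2F factors bind. The line gives 250 bases before and 50 bases after the RefSeq start site (GRCh38.p14), 5′ to 3′ on the minus strand, chr20:37095948-37096247, with these words in capitals.
RBL1: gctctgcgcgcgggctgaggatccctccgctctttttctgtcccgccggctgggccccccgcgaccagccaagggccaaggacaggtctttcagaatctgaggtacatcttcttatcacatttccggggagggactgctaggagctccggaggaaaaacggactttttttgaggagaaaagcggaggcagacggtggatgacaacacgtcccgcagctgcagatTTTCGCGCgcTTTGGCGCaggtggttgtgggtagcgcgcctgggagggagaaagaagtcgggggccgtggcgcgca
The words searched on both strands were TTTCGCGC, TTTGGCGC, TTTCCCGC and TTTGCCGC. The window holds TTTCGCGC at positions -26 to -19 and TTTGGCGC at -16 to -9. Of 35116 windows, 3.31% hold at least 1 such word and 0.145% at least 2. The windows of CCND3, CCNE1, CDK4 and CDK6 hold none of these 4 words. The only window listed for RB1 is at an internal start, chr13:48476200-48476499, so the promoter at the start of RB1 was not searched. None of the 9 windows found for 6 of the genes holds TTTGAA, the CHR element of mitotic promoters, which 15.2% of all windows hold.

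RBL1 had 28.9 and 27.7 CPM in postconfluent and 55.0 and 51.1 CPM in subconfluent Z1flag cells. Z2flag cells had 28.9 and 25.9 CPM after confluence and 49.8 and 53.5 CPM before it. The 4 Pc libraries and the 4 Sc libraries formed narrow groups, 27.8 ± 1.45 CPM and 52.4 ± 2.33 CPM (SD, n = 4 each). The log2 fold change of RBL1 was -0.91 in both lines (SE 0.18 in each, edgeR adjusted p = 0.0035 in Z1flag and 0.00374 in Z2flag cells). The Z2flag call was lost without subconfluent Z2flag replicate 2 (-0.88, adjusted p = 0.0531). Averaged over lines, RBL1 fell by 0.91 (SE 0.13, adjusted p = 0.000232) and was called in all 16 alternatives. Per kb, RB1 made up 52.7% to 67.0% of the sum of both pocket proteins in Pc and 46.6% to 53.8% in Sc libraries.

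Across the whole group, the states did not overlap for 8 of 10 genes in Z1flag libraries, all lower in Pc cells, while 33.5% of all genes tested were lower and 35.1% higher without overlap in that line. In Z2flag libraries the states of all 10 were apart, 9 lower against 41.2% of all genes and 1, CCND3, higher against 36.3%. Over all 8 libraries, 8 of 10 were lower without overlap, and none higher, against 26.1% and 25.1% of all genes.

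The order of levels per kb of merged exons also differed between states. In Pc cells CCND1 led with 44.3 ± 3.99 CPM per kb (SD, n = 4), followed by CDK2 at 21.7 ± 4.84 and CDK4 at 20.04 ± 3.24, whose ranges overlapped. CCND2, CCNE1, CDK6, RB1, CCND3 and RBL1 followed between 9.01 and 4.68 CPM per kb, each overlapping the next. CCNE2 was lowest at 1.93 ± 0.639 CPM per kb, apart from RBL1. In Sc cells CCND2 (72.1 ± 40.1), CCND1 (67.3 ± 7.56) and CDK4 (60.8 ± 4.07 CPM per kb) led with overlapping neighbours. The first place of CCND2 rested on subconfluent Z1flag replicate 1 at 131 CPM per kb, with 46.6 to 62.0 CPM per kb in the other 3 libraries. In subconfluent Z2flag cells it came, at 47.4 CPM per kb, after CCND1 (64.9) and CDK4 (63.4 CPM per kb). Below them CDK6 (43.0), CDK2 (30.2) and CCNE1 (22.9 CPM per kb) each stood apart from the next. CDK2 and CCNE1 were only just apart, with a lowest CDK2 of 28.3 and a highest CCNE1 of 28.1 CPM per kb. RB1 (9.06) and RBL1 (8.79) overlapped, as did CCNE2 (5.55) and CCND3 (4.07 CPM per kb) at the bottom. Merged exons take in every annotated transcript, so these levels can be lower than levels over the transcripts in use. The amount can differ between genes, so the order of genes and the shares above depend on this measure of length.

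The design also compares the tagged lines. None of the 18240 genes tested passed for Z2flag minus Z1flag in Pc cells, in Sc cells, or for the difference of their confluence changes, so percent called was 0.0 in each, while 1308, 195 and 902 genes had an unadjusted edgeR p under 0.05. CCNE2 came closest among the G1 genes: its fall was 0.96 smaller on the log2 scale in Z2flag than in Z1flag cells (95% interval 0.27 to 1.65, edgeR adjusted p = 0.799). In Pc cells it had 12.1 and 9.32 CPM in Z2flag, against 6.39 and 6.17 CPM in Z1flag cells, a log2 difference of 0.77 (95% interval 0.27 to 1.27, adjusted p = 0.638). CCNE1 in Pc cells differed by 0.71 (95% interval 0.05 to 1.37, adjusted p = 0.638). The fall of CCND2 differed by 1.29 between lines (95% interval 0.14 to 2.43, adjusted p = 0.799), and by 0.64 without subconfluent Z1flag replicate 1. Leaving out postconfluent Z1flag replicate 2 leaves replicate 1 alone in its group and assumes that it varies like the other groups. The difference between the lines in Pc cells was then 1.27 for CCNE1 and 0.76 for CDK2. With postconfluent Z1flag replicate 1 left out instead, the difference in Pc cells was 0.35 (adjusted p = 0.877) for CCNE1 and -0.06 (adjusted p = 0.955) for CDK2, against 0.26 (adjusted p = 0.734) for CDK2 with all libraries. For CDK4, CDK6 and RBL1 the 95% intervals of the line difference in the confluence change were -0.75 to 0.61, -0.61 to 0.94 and -0.57 to 0.55.

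Genes around the G1 kinases were counted in lists of pathway members, over both lines averaged, where 27.8% of all genes were higher and 27.5% lower. Of 7 inhibitors of these kinases, 2 were higher in Pc cells, none lower and 5 not called (median log2 fold change 0.26). CDKN1A, the p21 inhibitor, had 44.1, 42.6, 39.5 and 42.8 CPM in Pc libraries and 4.28, 4.12, 4.68 and 5.18 CPM in Sc libraries, in the order Z1flag replicates 1 and 2, then Z2flag replicates 1 and 2. It rose by 3.21 (SE 0.15, edgeR adjusted p = 1.71e-06). CDKN2D, which encodes the p19 inhibitor of CDK4 and CDK6, rose by 2.01 (SE 0.27, adjusted p = 0.000177), with 6.13 to 16.3 CPM in Pc and 2.80 to 3.51 CPM in Sc libraries.

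Among 10 E2F and DP factors, 9 were lower and 1 higher in Pc cells (median -1.16). E2F8 (-2.19, SE 0.19), E2F7 (-2.02, SE 0.20) and TFDP1 (-1.58, SE 0.14) had the smallest adjusted p among those lower. TFDP1 encodes a DNA-binding partner of other E2F factors. TFDP2, which encodes another such partner, was higher (0.55, SE 0.15, edgeR adjusted p = 0.012). Leaving out either subconfluent Z1flag replicate 1 or replicate 2 of subconfluent Z2flag cells ended the TFDP2 call, with adjusted p up to 0.0793. Of 25 genes that E2F factors activate at G1/S, 24 were lower and none higher (median -1.34). PCNA, the sliding clamp of DNA polymerase, had 40.5, 73.0, 88.2 and 78.3 CPM in Pc and 226, 239, 243 and 248 CPM in Sc libraries, in the same order. The log2 fold change was -1.80 (SE 0.19) for PCNA, -2.13 (SE 0.21) for MCM10, a replication initiation factor, and -1.92 (SE 0.15) for UNG, the uracil DNA glycosylase. The gene not called was CDT1 (-0.22, adjusted p = 0.562), named after its value was seen. Without postconfluent Z1flag replicate 1, in which 24 of these 25 genes were lowest among Pc libraries, 24 were still lower, with a median of -1.09.

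The partners of the pocket proteins in the DREAM and MuvB complexes were mixed, with 2 of 7 higher and 2 lower in Pc cells (median -0.25). MYBL2, which replaces the pocket proteins on MuvB in cycling cells, changed by -1.70 (SE 0.29, edgeR adjusted p = 0.000778) and LIN9 by -0.84 (SE 0.15, adjusted p = 0.00121). LIN37 was higher (0.93, SE 0.25, adjusted p = 0.00935) at 2.04 to 2.47 CPM in Pc and 1.08 to 1.34 CPM in Sc libraries, a call lost without subconfluent Z2flag replicate 1. RBL2, the pocket protein p130 of resting cells, was named after its value was seen: it had 112, 80.2, 97.8 and 98.2 CPM in Pc and 72.7, 75.6, 75.4 and 71.6 CPM in Sc libraries (0.39, adjusted p = 0.0351). RBL2 was not called in Z1flag (adjusted p = 0.157) or Z2flag cells (adjusted p = 0.124), and its averaged call was lost in 6 of 16 alternatives, with adjusted p up to 0.148: without the filter, without each of the 4 Sc libraries, and without both Z1flag replicate 1 libraries.

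Another list held 9 genes that act on cyclin-dependent kinases, through added or removed phosphate or through folding. Of these 9 genes, 4 were lower and none higher (median -0.23). CDC25A, the phosphatase that frees CDK2 from inhibition, fell by 2.21 (SE 0.23, edgeR adjusted p = 5.03e-05). CDC37, the co-chaperone that hands CDK4 to HSP90, changed by -0.61 (SE 0.16, adjusted p = 0.00934), and the inhibitory kinase PKMYT1 by -1.02 (SE 0.32, adjusted p = 0.0214). The CDC37 call was lost without postconfluent Z2flag replicate 2 (adjusted p = 0.0616). The PKMYT1 call was lost in 4 of 16 alternatives, with adjusted p up to 0.0952: without subconfluent Z1flag replicate 1, either postconfluent Z2flag replicate, or subconfluent Z2flag replicate 1. The count of genes lower was 1 to 4 over alternatives, with 1 without postconfluent Z2flag replicate 2 and 2 without replicate 1 of either subconfluent Z1flag or postconfluent Z2flag cells. Of 17 genes that turn over G1 cyclins and their inhibitors, 7 were lower and 2 higher (median -0.22). The log2 fold change was -1.96 (SE 0.14) for CUL1, the scaffold of SCF ligases, -1.19 (SE 0.13) for SKP2, the SCF subunit that targets p27, and -1.11 (SE 0.12) for CUL4A, scaffold of another ligase family. CKS2, a small kinase-binding protein, was higher (0.79, SE 0.26, adjusted p = 0.0243), but no gene of this list was called higher without either subconfluent Z1flag replicate, without postconfluent Z2flag replicate 1 or without either subconfluent Z2flag replicate, and 5 were without postconfluent Z1flag replicate 1.

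A list of other cyclins and cyclin-dependent kinases held 11 genes, of which 9 were tested, 4 were lower and 2 higher (median -0.47). CCNG2, an atypical cyclin linked to withdrawal from the cycle, had 41.8, 51.4, 62.7 and 59.5 CPM in Pc and 7.25, 9.08, 7.44 and 8.92 CPM in Sc libraries. It rose by 2.70 (SE 0.16, edgeR adjusted p = 3.81e-06). Both CDK5 (-1.36, SE 0.18) and CCNF, cyclin F (-1.14, SE 0.20), were lower.

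**Figure D4:**
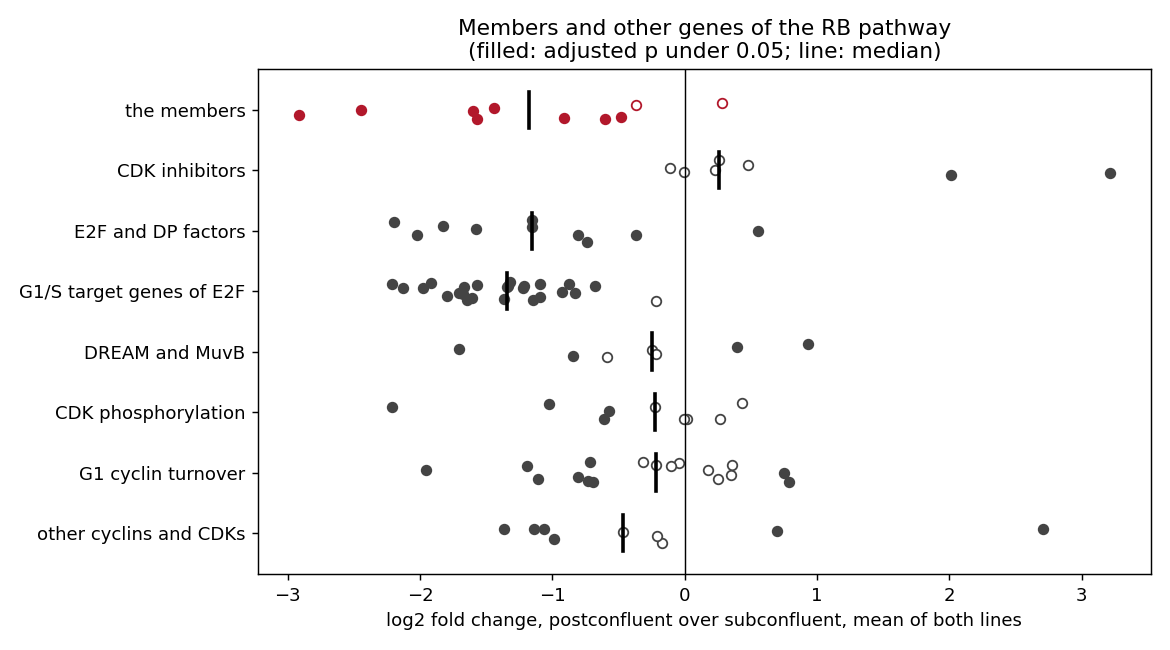
Averaged log2 fold change of Pc over Sc cells (horizontal axis) for each tested gene of the lists (rows), filled where edgeR adjusted p was under 0.05, with a vertical line at each median and the 10 G1 genes in red. The 25 G1/S target genes of E2F all lie left of 0 with a median of -1.34, the 10 G1 genes have a median of -1.17, and CDKN1A at 3.21 lies farthest to the right.

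Genes with the most similar profile were sought among 11031 tested genes, by the root mean square difference between log2 CPM over the 8 libraries after each profile was centred on its own mean. The profile of CDK2 was closest to THAP4 (0.0498), that of RBL1 to ORC2, a subunit of the origin recognition complex (0.0525), and that of CDK4 to TOMM40L (0.0537). CCND1 was closest to ARID1A, a subunit of SWI/SNF remodellers (0.0693), RB1 to MAGI3 (0.0887) and CCND3 to MDK (0.11). CDK6 was closest to EOGT (0.129), CCNE1 to NOP56, a nucleolar protein of box C/D particles (0.134), and CCNE2 to RPF2, a ribosome assembly factor (0.15), with CENPK, a kinetochore protein, next at 0.152. CCND2 had the largest difference from its closest match, CDC42EP3 at 0.275. Its median difference from all candidates was also the largest, at 1.47, with 0.424 for CCND1. Such differences grow with the size of a gene's own change, so they do not rank matches between genes. Among the 10 genes themselves the closest pairs were CCND1 with RBL1 (0.188), CCND1 with CDK2 (0.249) and CCNE1 with CDK4 (0.311). The points share libraries and depth, and the values only describe these 8 libraries.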

How the data were processed

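Values came from 8 libraries, 2 for each line and state, grouped by their titles. The authors deposited raw HTSeq counts per Ensembl gene ID. Per the submitters' processing notes, alignment and counting drew on hg38, HTSeq, SAMtools and STAR 2.5.2b. For counting, no annotation, mode or strand setting is named in these sources. Of 58302 IDs, 57532 had a symbol and 58039 were in GENCODE v29, which gave positions and exon lengths. Reads on no gene (20.6% to 32.02% of those listed) and ambiguous reads (5.39% to 7.86%) were left out of library sizes and tests. Lengths do not enter the tests.

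The 4 group means were fitted together on counts with edgeR 4.0.16 in R 4.3.3, using TMM scaling and the robust quasi-likelihood F test. The filterByExpr filter (minimum count 10, minimum total 15) left 18240 genes, over which p-values were adjusted by Benjamini-Hochberg, with a threshold of 0.05. The 6 contrasts were Pc minus Sc in each line, their mean, their difference, and Z2flag minus Z1flag in each state. Levels are CPM with TMM scaling. A prior count of 2 went into log2 CPM. Each SE was derived from its fold change and F statistic. The pipeline was tested on simulated counts.

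The 10 genes and the gene lists were chosen with earlier results of these data known. Named in each list were up to 3 genes of smallest averaged adjusted p with mean CPM of at least 1, and the first of the other direction. Candidates for similar profiles had a symbol and mean CPM of at least 5. RefSeq promoter windows (GRCh38.p14) matched 6 of the 10 genes by symbol.

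Across genes, deviations of same-numbered replicates correlated weakly between groups, with r from -0.18 to 0.178. Both Z1flag replicate 1 libraries had the largest shares of reads on no gene, 31.4% in Pc and 32.02% in Sc cells. The labels do not say what a number marks, so no replicate block was used. As alternatives, the tests were run with limma voom (limma 3.58.1), DESeq2 1.42.0, upper-quartile scaling, RLE scaling, no filter, a filter of CPM 5 in 2 libraries, fits of only the libraries compared, a replicate block, CPM by total counts, and leaving out each library. Leaving out both Z1flag replicate 1 libraries and a crossed block were added after seeing the data. Tables were made with pandas 2.3.3 and numpy 2.4.6 and figures with matplotlib 3.10.9, under Python 3.11.15.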

Additional observations from a re-analysis of the deposited data

Results flagged for a closer look

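In each state the 4 libraries of each G1 gene were checked for a library far from the rest, 20 groups in all. For CDK2, postconfluent Z1flag replicate 1 had 56.6 CPM, far below the other 3 postconfluent libraries at 91.3 to 97.5 CPM: the gap was 0.848 of the whole range, above Dixon's 95% limit for 4 samples. For CDK2 again, subconfluent Z1flag replicate 2 had 110.2 CPM, below 119 to 120.4 CPM in the other 3 subconfluent libraries, with a gap of 0.873 of a narrow range. Chance alone gives such a gap in about 1 of 20 groups, and 2 of 20 were found here. The CDK2 fold change without the first of these libraries is given with the CDK2 result.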

How the results depend on the processing

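The calls for CCND2, CCNE2, CDK4 and CDK6 held in both lines under all 17 alternatives; CCND1, CCNE1 and RBL1 lost at least 1 line's call, as given with each gene. The number of G1 genes lower was 6 to 8 in Z1flag, 5 to 7 in Z2flag and 7 to 9 averaged. Between lines in Pc cells, 0 G1 genes passed, and 0 to 2 when 1 library was left out. Leaving out 1 library gave CCND3 in Z1flag cells -0.28 to 0.79. Calls over all genes were 3757 to 8862 in Z1flag and 2894 to 9108 in Z2flag cells when 1 library was left out, and 4865 in Z1flag cells without both Z1flag replicate 1 libraries. For the difference of the confluence changes between lines they were 0 to 190, and for the lines in Pc cells 0 to 2252, with 1 library left out. Without the filter they were 41 for that difference, 221 for the lines in Pc cells and 2 for the lines in Sc cells. Upper-quartile scaling moved the averaged median of all genes to 0.18, with 62.0% of calls higher, against -0.01 and 50.3% with TMM; no G1 gene changed sign.

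With a replicate block, 6 G1 genes were called in Z1flag cells, 7 in Z2flag cells and 8 averaged, and over all genes 7155, 6627 and 9954. CCND1 in Z1flag cells was lost (edgeR adjusted p = 0.0511). The numbers are not known to pair samples. The crossed block for Pc cells called 0 genes. Of the line differences not called, signs changed in 18 of 144 values in Pc cells, 5 of 153 in Sc cells and 30 of 128 for the difference of changes. With CPM by total counts, 6 of 40 group levels moved by over 1 SD. In Z1flag cells CDK2, RB1 and CCND3 were not called with all libraries, and each passed when 1 postconfluent Z1flag library was left out, as given with each gene.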
